A study of Mus musculus with 4 samples.

Results

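Lgals3, Clu, Sfn, Ndrg1, Nupr1, Sprr1a and Tnip3 are markers, other than keratins, of the transitional state of the alveolar epithelium. They were taken by name, with earlier results of these data known, and looked up by Entrez identifier. All 7 were found among the 28096 gene identifiers of the deposited tables. The 4 libraries share a single genotype label, KRasEtv wt, and hold polyadenylated RNA of mouse alveolar type II cells, which make lung surfactant. Per the labels' protocols, the cells were sorted from lungs as EpCAM+ cells without CD24, CD45, CD31 and Pdpn on their surface. Culture was in matrigel with BEGM medium, for 4 days in the presence of 100 nM 4-hydroxytamoxifen and for 1 further day in its absence. The design text names 3 genotypes of 4 mice each, and all carry KRaswt/d12 together with RosaCreERT2, a tamoxifen-activated Cre at the Rosa locus, which is not restricted to type II cells. They differ in having no further allele, Etv5loxp/loxp, or Etv5loxp/loxp with Etv4KO/KO. The labels do not say which of these KRasEtv wt means, and the other genotypes were not analysed here, so there is no untreated or uncultured control and no contrast between conditions. The libraries carry no replicate number, so libraries 1 to 4 are named in accession order. Nothing in the labels ties a library to a single mouse, and p-values therefore measure the spread between these libraries, which may be technical.

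When the alveolus is injured, or when type II cells are grown in culture, some type II cells leave the surfactant programme and pass through an intermediate state on their way to flat type I cells. Cells in this state are known for simple keratins such as Krt8 and Krt19, for p53 targets and stress response genes, and for the genes described here. The encoded proteins have unlike roles. Galectin-3 (Lgals3) is a lectin that binds galactose-containing sugars, and clusterin (Clu) is a secreted chaperone. Sfn is the 14-3-3 protein sigma, a p53-induced brake on the cell cycle found mainly in epithelia, and Ndrg1 is a protein induced by hypoxia and differentiation. Nupr1 is a small nuclear stress protein, Sprr1a is a proline-rich precursor of the cornified envelope of squamous cells, and Tnip3 binds the A20 protein and dampens NF-kB signalling.

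Between 12133251 and 13591876 reads were counted per library. The mitochondrial ribosomal RNAs took 19.6% to 38.9% of them, which makes a scaling by total counts differ from the authors' scaling: CPM on total counts shifts the median tested gene by 0.21 (log2) in library 1 and by -0.28 in library 4. Pairs of libraries differed by 31.0 to 89.0 times the sampling noise, and none was a copy. This chi-square per degree of freedom covers all counts, with the mitochondrial ribosomal RNAs and their unlike shares included. Apart from this measure, library 3 stood out by its sex and library 1 by its type II markers. By its sex-linked RNAs library 3 was female and the others male, so it does not repeat the cells of any other library. Its sex cannot be told apart from its other differences. Library 3 had 66.3 nRPKM (size-factor-adjusted RPKM, the authors' level per gene length) of the X-inactivation RNA Xist, where the others had 0.255 to 0.784, and only 0.243 of the Y-linked Eif2s3y, where the others had 14.6 to 23.2. In library 1, all 12 type II markers listed had their lowest level (lowest in library 1 held for 26.8% of the 13156 genes tested; with CPM on total counts 10 of the 12 were lowest there). Sftpc had 6301 nRPKM in library 1 and 8377 to 14834 in the others. The cells carried markers of both alveolar types, with all 12 type II markers and 9 of 12 type I markers at a mean level of at least 1 nRPKM, a level that 42.4% of all identifiers reached.

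All 7 transitional markers were expressed in all 4 libraries. Each had at least 4.54 nRPKM and at least 168 reads in every library, and a level of at least 1 nRPKM in all libraries was found for 38.8% of all identifiers. Clu, Sprr1a and Lgals3 made up 87.4% to 94.9% of the summed level of the 7 genes, depending on the library. By mean level, Clu ranked 41, Sprr1a 114 and Lgals3 168 among the 28096 identifiers, Nupr1 ranked 760, and Tnip3, Sfn and Ndrg1 ranked 3828, 4034 and 4212.

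**Figure D1:**
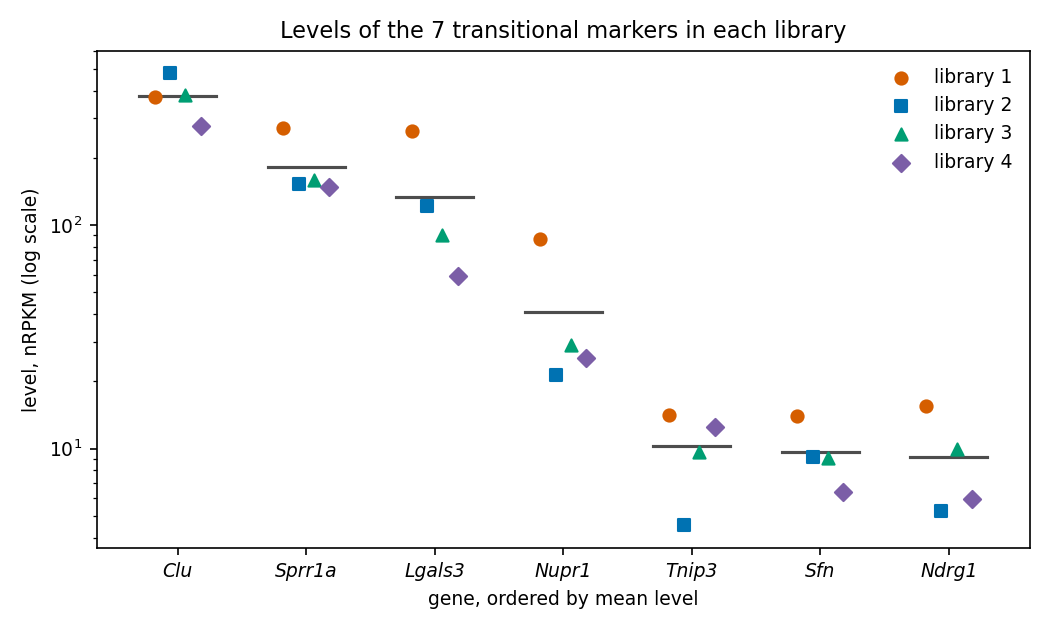
Level of each of the 7 genes (nRPKM, log scale) in each library; symbols are the 4 libraries and the grey line is their mean. Clu lies highest at 277 to 478 nRPKM, and library 1 is the highest point for the other 6 genes.

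The levels fell in an order with 4 steps that had the same direction in every library and 2 that did not. Mean levels were 378 ± 81.9 nRPKM for Clu, 183 ± 59.2 for Sprr1a, 134 ± 90.4 for Lgals3, 40.7 ± 30.9 for Nupr1, 10.2 ± 4.22 for Tnip3, 9.69 ± 3.19 for Sfn and 9.15 ± 4.69 for Ndrg1 (SD, n = 4 throughout). Neighbours were compared within each library as differences of log2(nRPKM + 1). Clu lay above Sprr1a by 1.07 ± 0.50, Sprr1a above Lgals3 by 0.62 ± 0.55, Lgals3 above Nupr1 by 1.71 ± 0.53 and Nupr1 above Tnip3 by 1.75 ± 0.68, each in 4 of 4 libraries. Each of these reached the smallest p that 4 libraries allow in a two-sided exact sign-flip permutation test, which cannot pass 0.05, and had an adjusted p of 0.188 over the 6 pairs. Tnip3 and Sfn (difference 0.02 ± 0.72, higher in 3 of 4 libraries, exact permutation p = 0.75) and Sfn and Ndrg1 (0.14 ± 0.39, 2 of 4, exact permutation p = 0.875) did not differ beyond their spread.

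Galectin-3 had the widest range of the 7 genes. Lgals3 (Entrez 16854) had 264, 122, 90.8 and 59.4 nRPKM in libraries 1 to 4, from 7571, 3042, 2672 and 1361 reads. Library 1 was 2.17 times the next library and 4.45 times library 4, and none of the 4 counting intervals touched another (95% exact Poisson, 258 to 270 in library 1 and 56.3 to 62.6 in library 4, for counting error alone, as PCR duplicates carry no identifiers). Among its relatives, which bind the same kind of sugar, Lgals9 had 42.7 ± 9.57 nRPKM, Lgals8 20.5 ± 3.02 and Lgals1 10.1 ± 7.51 (SD, n = 4). The ratio of Lgals3 to Lgals9 was 3.28 ± 2.45 (SD, n = 4), and 6.83 in library 1. Lgals2, Lgals4 and Lgals12 had mean levels below 1, and no read was counted for Lgals7. Of the 3 relatives with a mean level of at least 1, Lgals1 followed the library order of Lgals3, with 20.2, 11.5, 5.13 and 3.68 nRPKM in libraries 1 to 4. Lgals9 was highest in library 3 (56.5) and Lgals8 in library 4 (24.5).

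Lgals3 and Lgals1 are also abundant in macrophages. Of 14 leukocyte and macrophage markers listed, 9 reached 1 nRPKM on average, against 42.4% of all identifiers. Of these 9, 5 were highest in library 1, against 23.3% of all genes tested. With CPM on total counts it was 8 of 9, against 41.6% of all genes. The summed level of the 14 was 97.9, 86.6, 46.1 and 34.9 nRPKM in libraries 1 to 4. The lysosomal macrophage gene Cd68 was the highest, with 35.3, 25.3, 15.6 and 10.5 nRPKM in libraries 1 to 4, the same order of libraries as for Lgals3. Next were the lipopolysaccharide receptor gene Cd14 (15.2 ± 2.81) and the Fc receptor chain gene Fcer1g (8.64 ± 5.94; SD, n = 4). Fcer1g had another order, with 12.7, 14.6, 5.01 and 2.24 nRPKM in libraries 1 to 4. Of the 9 genes, those not highest in library 1 were Fcer1g, Laptm5 and Marco, highest in library 2, and Itgam, highest in library 3. The pan-leukocyte gene Ptprc lay between 0.245 and 0.696 in every library, and the lymphocyte genes Cd3e and Cd79a rested on at most 3 reads. The ratio of Lgals3 to Cd68 was 7.48, 4.81, 5.80 and 5.67 in libraries 1 to 4. The part of leukocytes in the level of Lgals3 was not tested. In these bulk samples, more cells of a kind and more RNA per cell cannot be told apart.

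Clusterin differed from the other 6 genes in its order of libraries. Clu (Entrez 12759) had 373, 478, 384 and 277 nRPKM across libraries 1 to 4, with 13759, 15333, 14532 and 8174 reads behind them. Library 2 had the highest level and library 4 the lowest, and its highest level was 1.72 times its lowest, a ratio larger than that of 59.8% of the genes tested. Clu had the smallest coefficient of variation of the 7 genes, 21.7%, against 67.4% for Lgals3 and 76.0% for Nupr1. It supplied 35.9% of the summed level of the 7 genes in library 1 and 51.9% to 60.2% in the others.

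Sprr1a was the one Sprr gene with a high level. Sprr1a (Entrez 20753) had 271, 153, 159 and 148 nRPKM in libraries 1 to 4, from 4370, 2146, 2623 and 1905 reads. Library 1 stood above the other 3, which lay within 1.07 times of each other. Of the other Sprr genes, which also encode cornified envelope precursors, only Sprr2a3 reached a mean level of 1 (1.73 ± 1.28 nRPKM, SD, n = 4). Its sequence is shared for 61.1% of 50-base words with other annotated genes, among them Sprr2a1, so its level is uncertain, and Sprr1a shares none. Its closest namesake, Sprr1b, had 1 to 9 reads per library. No read was counted for Sprr2a1, Sprr2b, Sprr2d, Sprr2i, Sprr2j-ps and Sprr4. Sprr2a1 and Sprr2a2 share 96.3% and 96.5% of their 50-base words with other genes, and since the counts hold uniquely aligning reads, their 0 or 1 reads do not show that they are silent. Of the remaining envelope genes, the desmosomal plakin gene Ppl had 15.9 ± 4.69 nRPKM, the envelope scaffold gene Ivl 9.27 ± 1.47, Scel 8.76 ± 1.02, the cross-linking transglutaminase gene Tgm1 4.98 ± 1.24 and Evpl 1.37 ± 0.136 (SD, n = 4). The late cornification genes Lor and Tgm3 had at most 3 reads in a library. Sprr1a lay 13.7 to 28.0 times above Ivl.

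Sprr1a and Sfn are also made by squamous and basal epithelium. Of 8 basal markers, 6 averaged at least 1 nRPKM, a level that 42.4% of all identifiers reached. They were led by the keratin genes Krt5 (34.02 ± 27.3 nRPKM), Krt6a (23.9 ± 16.1) and Krt14 (19.3 ± 13.1; SD, n = 4). The summed level of the 8 was 159, 112, 22.3 and 52.5 nRPKM in libraries 1 to 4, and the defining factor gene Trp63 lay between 0.150 and 1.08. Of the 6 basal genes averaging at least 1 nRPKM, 4 were highest in library 1, against 23.3% of all genes tested. It was 5 of 6 with CPM on total counts, against 41.6% of all genes. Sprr1a had 271, 153, 159 and 148 nRPKM in libraries 1 to 4, and Krt5 had 70.6, 37.9, 8.22 and 19.4. Both were highest in library 1. The ratio of Sprr1a to Krt5 ran from 3.85 in library 1 to 19.3 in library 3, and that of Sfn to Krt5 from 0.199 to 1.11 in the same libraries. The part of basal cells in the levels of Sprr1a and Sfn was not tested.

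The stretch before the start of Sprr1a is shown because it holds 2 copies of the AP-1 motif. The window is 250 bases that end just before the RefSeq start (GRCm38.p6), 5′ to 3′ on the gene's strand, with matches to the AP-1 motif TGANTCA in capitals. AP-1 is the dimer of Fos and Jun proteins that acts below ERK signalling.
Sprr1a (chr3:92485882-92486131, - strand): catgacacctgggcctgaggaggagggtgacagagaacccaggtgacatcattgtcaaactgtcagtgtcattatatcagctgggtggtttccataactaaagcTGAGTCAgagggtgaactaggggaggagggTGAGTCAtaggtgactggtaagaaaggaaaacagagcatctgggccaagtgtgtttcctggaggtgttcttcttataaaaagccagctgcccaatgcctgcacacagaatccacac

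The AP-1 motif was found at 146 to 140 and at 116 to 110 bases before the start, and a TATA box (TATAAA) at 43 to 38. Of 32851 RefSeq promoter windows of this length, 6.75% held the AP-1 motif on either strand and 12.4% the TATA box. Of the 5 markers with a window in the table (Lgals3, Sfn, Nupr1, Sprr1a and Tnip3), Sprr1a was the one with an AP-1 match. The AP-1 subunit gene Fosl1, itself a transitional marker, had 20.1, 10.5, 7.98 and 5.61 nRPKM in libraries 1 to 4. A match of letters is a description and not a site of binding.

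Nupr1 stood out in library 1. Nupr1 (Entrez 56312) had 86.8, 21.4, 29.1 and 25.4 nRPKM in libraries 1 to 4, from 1108, 238, 382 and 259 reads. Library 1 was 2.98 times the next library, the largest such step of the 7 genes, and the other 3 libraries lay within 1.36 times of each other. Without library 1 the mean was 25.3 nRPKM in place of 40.7. Nupr1 is known as a target of ATF4, the transcription factor of the integrated stress response. Of 10 other genes of the ATF4 list averaging at least 1 nRPKM, 7 were highest in library 1, against 23.3% of all genes tested. The same 7 of 10 was found under each of the 4 other scalings, where the share of all genes was 24.6% to 41.6%. Atf4 itself had 72.4, 50.7, 49.2 and 45.8 nRPKM in libraries 1 to 4, and the asparagine synthetase gene Asns had 29.9, 19.7, 24.3 and 20.5. Atf3, a stress-induced factor, had 8.93, 2.45, 3.45 and 3.32 nRPKM, so that its library 1 also stood far above the rest. Ddit3, Trib3, Chac1 and Ppp1r15a were the other genes highest in library 1, Ddit4, Sesn2 and Cebpb were not, and none of the 11 genes tested on this list passed the test of spread after adjustment. The ratio of Nupr1 to Atf4 was 1.20 in library 1 and 0.422 to 0.593 in the others.

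Sfn was a minor member of its family. Sfn (Entrez 55948) had 14.05, 9.22, 9.09 and 6.39 nRPKM in libraries 1 to 4, from 462, 264, 307 and 168 reads. Library 1 was highest and library 4 lowest, and the counting intervals of libraries 2 and 3 overlapped (8.14 to 10.4 and 8.10 to 10.2, 95% exact Poisson). The other 14-3-3 proteins are general phosphoprotein adaptors. Ywhae had 323 ± 27.2 nRPKM, Ywhaz 245 ± 16.7, Ywhab 108 ± 13.4, Ywhag 42.7 ± 9.92, Ywhah 22.6 ± 1.68 and Ywhaq 9.62 ± 5.56 (SD, n = 4). Sfn therefore lay at 0.0301 ± 0.0102 times Ywhae (SD, n = 4). Sfn shares 15.03% of its 50-base words with other annotated genes, Gm5279, Gm7850 and Ywhaq-ps1, Ywhaq shares 37.8%, Ywhaz 19.9% and Ywhah 18.6%, so the levels of these 4 genes are uncertain. Sfn is induced by p53. Of 9 listed p53 pathway genes averaging at least 1 nRPKM, 6 were highest in library 1, again against 23.3% of all genes (7 with CPM on total counts, against 41.6%). The cell cycle inhibitor gene Cdkn1a had 206, 132, 185 and 118 nRPKM in libraries 1 to 4. Ccng1 had 164, 139, 120 and 141, and the p53 ubiquitin ligase gene Mdm2 had 62.7, 43.4, 46.9 and 43.5. None of the 11 p53 genes tested, these included, passed the test of spread after adjustment, and Pmaip1 was too low to be tested.

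The windows of Nupr1 and Sfn are shown because they hold the same 8 letters at nearly the same distance from the start. Matches to TGATGNAA, the composite motif of C/EBP and ATF factors, are in capitals, and in both windows they lie on the strand opposite to the gene.
Nupr1 (chr7:126625471-126625720, - strand): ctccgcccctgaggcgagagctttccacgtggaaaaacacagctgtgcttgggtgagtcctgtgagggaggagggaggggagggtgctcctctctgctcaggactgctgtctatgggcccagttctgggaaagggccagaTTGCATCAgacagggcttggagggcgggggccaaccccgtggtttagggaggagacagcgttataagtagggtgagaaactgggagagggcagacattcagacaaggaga
Sfn (chr4:133602169-133602418, - strand): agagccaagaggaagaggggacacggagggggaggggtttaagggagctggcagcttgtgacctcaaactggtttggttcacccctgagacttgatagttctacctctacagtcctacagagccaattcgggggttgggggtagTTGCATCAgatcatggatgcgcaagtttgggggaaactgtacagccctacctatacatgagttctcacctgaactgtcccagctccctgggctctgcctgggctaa

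The match lies 110 to 103 bases before the start of Nupr1 and 106 to 99 bases before that of Sfn, and reads TTGCATCA on the gene's strand in both. It was found in 3.45% of all windows and in 2 of the 5 markers with a window. Nupr1 also held the hypoxia element ACGTG at 225 to 220 bases (16.6% of all windows hold this element). It matched on both strands because the stretch there, CACGTG, reads the same on each, so this is a single stretch.

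Ndrg1 was low, and was lowest in library 2. Ndrg1 (Entrez 17988) had 15.5, 5.26, 9.96 and 5.92 nRPKM in libraries 1 to 4, from 911, 270, 603 and 279 reads. Libraries 1 and 3 were high and libraries 2 and 4 low, and the counting intervals of the latter overlapped (4.65 to 5.93 and 5.25 to 6.66). Among its relatives, Ndrg2 had 22.9 ± 5.35 nRPKM, Ndrg3 10.9 ± 1.08 and Ndrg4 1.49 ± 0.0458 (SD, n = 4). Ndrg1 lay above Ndrg3 in library 1 (1.505 times) and below it in the others (0.496 to 0.795 times). Of the 2889-base transcript of Ndrg1, 14.6% of 50-base words occur in Gm17035 and Gm2895, which overlap its exons on the opposite strand. Whether the counting used strand is not stated, and without it reads of these genes and of Ndrg1 cannot be told apart. Ndrg1 is a classic hypoxia-induced gene. On the list of other hypoxia targets, 2 of 8 genes averaging at least 1 nRPKM were highest in library 1, against 23.3% of all genes tested. With CPM on total counts it was 5 of 8, against 41.6% of all genes. The lactate dehydrogenase gene Ldha had 158, 197, 266 and 192 nRPKM in libraries 1 to 4, the glucose transporter gene Slc2a1 had 26.0, 21.5, 17.4 and 14.1, and the oxygen sensor gene Egln1 had 15.05, 17.9, 24.6 and 19.1. Vegfa (18.4 nRPKM on average), P4ha1 (9.18), Pgk1 (6.35), Pdk1 (1.95) and Bnip3 (1.54) were the others averaging at least 1. The remaining listed genes, Car9, Egln3, Adm and Ankrd37, had mean levels below 1. Of these, Egln3, Adm and Ankrd37 were highest in library 1 and Car9 in library 2. The part of hypoxia in the level of Ndrg1 was not tested.

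Tnip3 had an order of its own. Tnip3 (Entrez 414084) had 14.2, 4.54, 9.64 and 12.6 nRPKM in libraries 1 to 4, from 1088, 304, 761 and 771 reads. Library 2 was low, and libraries 1 and 4 were high. Tnip3 lay above its relatives in every library: Tnip1 had 4.03 ± 0.913 nRPKM and Tnip2 2.25 ± 0.362 (SD, n = 4), and the ratio of Tnip3 to Tnip1 was 1.501 to 3.60. Its binding partner Tnfaip3 (A20) had 2.14 ± 0.711. Of the NF-kB response genes, the adhesion gene Icam1 was high at 66.8 ± 4.85 nRPKM, but shares 18.6% of its 50-base words with Gm47079. The apoptosis inhibitor gene Birc3 followed at 4.62 ± 0.992, and the inhibitor gene Nfkbia had 3.03 ± 0.983 (SD, n = 4). Of 8 other genes of this list averaging at least 1 nRPKM, 2 were highest in library 1 and 4 in library 3. These counts compare with 23.3% and 23.4% of all genes tested. With CPM on total counts it was 3 of 8 in library 1, against 41.6% of all genes.

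The window of Tnip3 is shown for its match to the NF-kB motif, in capitals.
Tnip3 (chr6:65590148-65590397, + strand): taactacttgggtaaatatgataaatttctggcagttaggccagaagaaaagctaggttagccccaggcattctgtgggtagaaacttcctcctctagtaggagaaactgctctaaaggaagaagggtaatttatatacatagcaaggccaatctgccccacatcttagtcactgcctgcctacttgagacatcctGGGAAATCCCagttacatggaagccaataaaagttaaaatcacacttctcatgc

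This match, GGGAAATCCC, lies 54 to 45 bases before the start, and 3.90% of all windows held the NF-kB motif. A TATA box on the opposite strand lies at 120 to 115 bases. The window of Lgals3 held none of the 8 motifs searched.

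**Figure D2:**
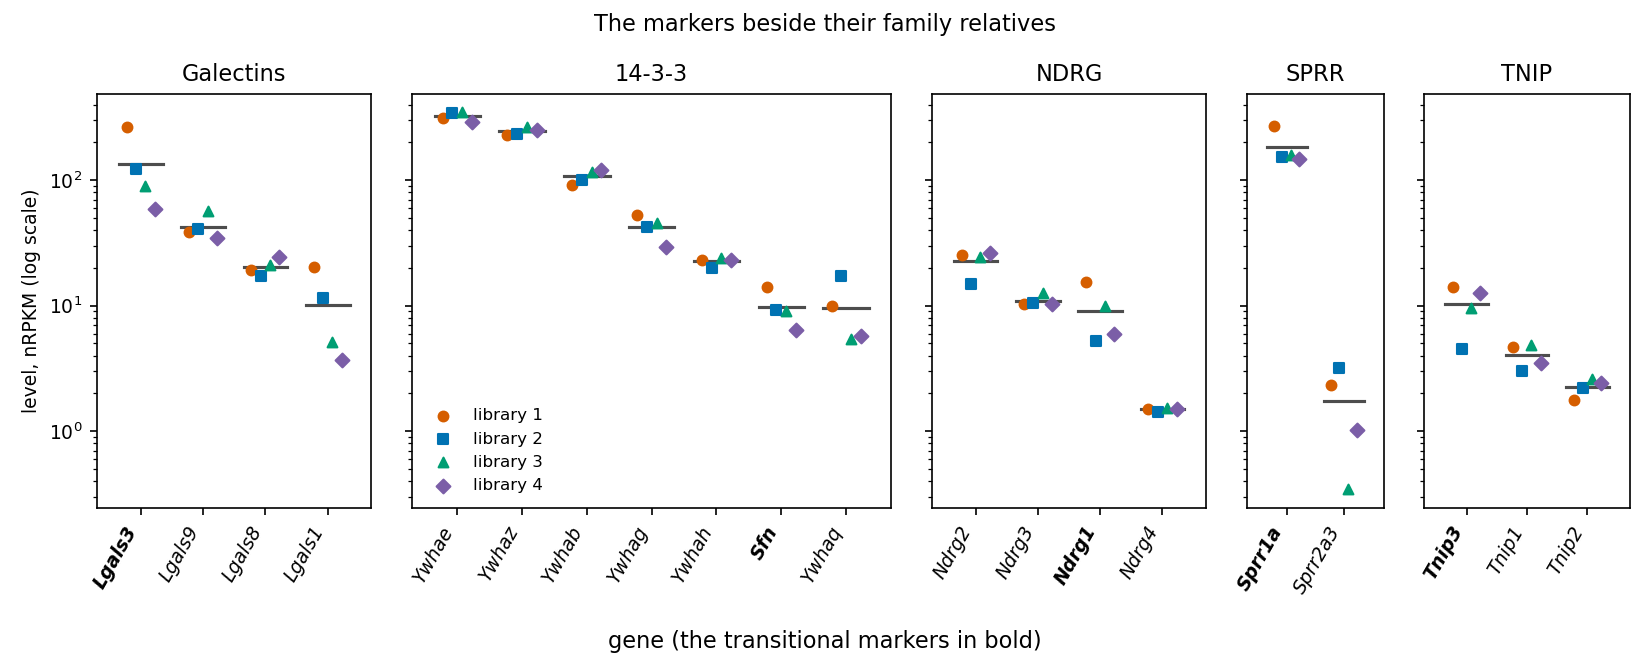
Level (nRPKM, log scale) of the markers, in bold, and of their family relatives with a mean level of at least 1 nRPKM; symbols are the 4 libraries and the grey line is their mean. Lgals3, Sprr1a and Tnip3 lead their families, while Sfn and Ndrg1 lie among the lower members.

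Spread between the libraries was tested for each gene on the counts (edgeR quasi-likelihood dispersion against its trend). Of 13156 genes tested, 2 (Xist and Tsix) passed at an adjusted p of 0.05, which is 0.0152%, and none of the 7 markers did. On simulated counts this test missed most differences of the size seen for the markers and also made some calls where no gene had been changed, so a marker that did not pass is not shown to be even. At an unadjusted p under 0.05, 4 of the 7 passed, against 5.13% of all genes. The markers were chosen with earlier results of these data known, so this count is not independent of the data. The 4 markers that passed had unadjusted edgeR p-values of 0.0018 (Nupr1), 0.00456 (Lgals3), 0.0119 (Ndrg1) and 0.0145 (Tnip3). Their adjusted p-values in edgeR were 0.515, 0.598, 0.765 and 0.786 in the same order. Sfn, Sprr1a and Clu had p-values of 0.124, 0.163 and 0.522 and adjusted p-values of 0.997 in the same edgeR test. Such spread was not particular to the markers. An unadjusted edgeR p under 0.05 was also found for 7 of 7 basal, 5 of 5 club, 5 of 7 mesenchymal and 7 of 11 leukocyte genes tested. It was found for 5 of 12 other transitional genes, and for 0 of 12 type II and 0 of 10 type I genes. Without the low-count filter Nupr1 had an adjusted p of 0.0464 (edgeR, 66 genes called), and DESeq2 listed Lgals3 among 62 dispersion outliers. Without library 1 the p-values of Nupr1 and Lgals3 were 0.613 and 0.0688 (edgeR), and Tnip3 had 0.0107.

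The ratio of the highest to the lowest library was 2.94 for the median of the 7 genes, with a range of 1.72 to 4.45, and 1.60 for the median of all genes tested. Without library 1 the median of the 7 was 1.72. The 1.60 of all genes covers all 4 libraries and was not computed without library 1, so these 2 values are not comparable. Leaving out a library can only lower such a ratio or keep it. Without library 1 Nupr1 had a ratio of 1.36 in place of 4.05, Sprr1a 1.07 in place of 1.83 and Lgals3 2.05 in place of 4.45. Tnip3 kept a ratio of 2.76 in place of 3.12.

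**Figure D3:**
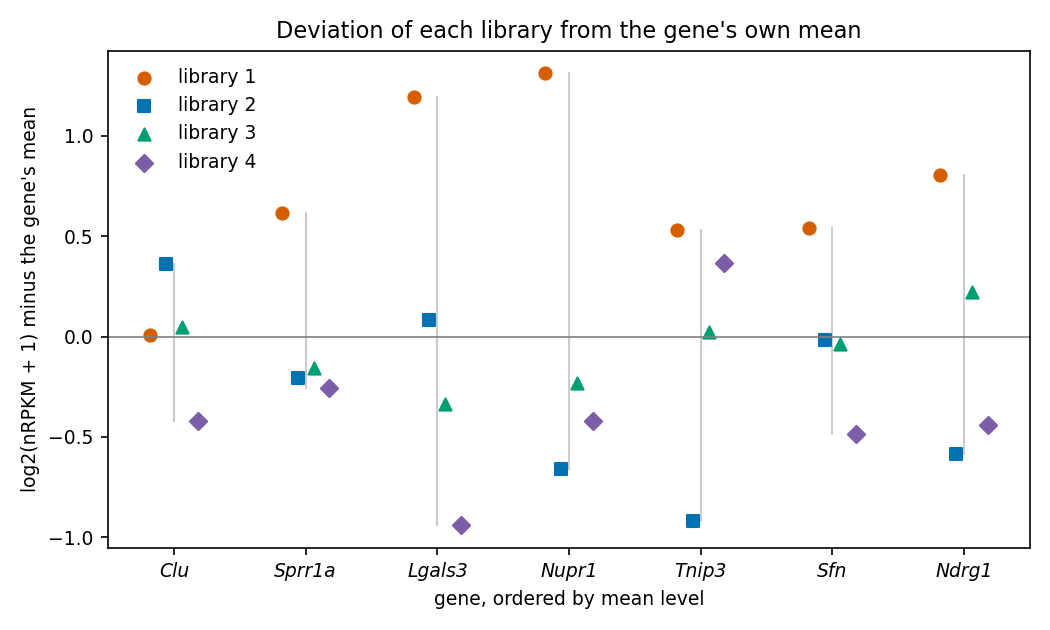
Deviation of each library from the gene's own mean over the 4 libraries, on the log2(nRPKM + 1) scale; symbols are the libraries and the grey line is the range. Library 1 is highest for 6 of 7 genes, and the order of the other 3 libraries differs between genes.

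Library 1 was the highest for 6 of the 7 genes, where 23.3% of all genes tested were highest there. As the genes were chosen with earlier results of these data known, this count is not independent of the data. The same count of 6 was found with CPM on total counts, on TMM library sizes or without the mitochondrial ribosomal RNAs, and with DESeq2 size factors. With CPM on total counts, however, 41.6% of all tested genes were highest in library 1. The mean deviation of the 7 genes, on the log2(nRPKM + 1) scale, was 0.72 in library 1, -0.28 in library 2, -0.07 in library 3 and -0.37 in library 4. Clu was highest in library 2, as were 25.4% of all genes tested, and no marker was highest in library 3 (23.4% of all genes) or library 4 (27.9%). The lowest library was library 4 for Lgals3, Clu, Sfn and Sprr1a (26.7% of all genes) and library 2 for Ndrg1, Nupr1 and Tnip3 (25.7%). None was lowest in library 3, where 20.8% of all genes were lowest. With CPM on total counts Ndrg1 was lowest in library 4.

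The most alike pair of markers was Sfn and Sprr1a, whose centred log2 levels differed by a root mean square of 0.16 over the 4 libraries. The least alike were Lgals3 and Tnip3, at 0.91. By the same measure, the genes most like each marker were sought among 3499 named genes that averaged at least 10 nRPKM. With 4 libraries, many genes match a pattern closely, so these are descriptions. Lgals3 was closest to the urokinase receptor gene Plaur (0.09; 34.6, 16.1, 12.7 and 8.57 nRPKM in libraries 1 to 4), then to the calcium-binding protein gene S100a6 (0.11) and Uqcrq (0.16). Plaur is itself on the list of other transitional markers. Nupr1 was closest to the carboxylesterase gene Ces1g (0.14; 28.8, 8.29, 11.1 and 10.5 nRPKM), the prostaglandin synthase gene Ptgs2 (0.22) and the phosphatase gene Dusp1 (0.23). Ndrg1 was closest to the lipid droplet gene Plin2 (0.09; 91.2, 40.8, 68.2 and 41.5 nRPKM), Gabarapl1 (0.11) and Gstp1 (0.14).

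Tnip3 was closest to the phosphatidate phosphatase gene Lpin2 (0.11), Rcn2 (0.12) and Niban1 (0.13), all lowest in library 2. Sprr1a was closest to Zfand2a (0.02), Cmpk1 (0.04) and Churc1 (0.05), all highest in library 1. Sfn was closest to Gstp-ps (0.0036), the tetraspanin gene Cd63 (0.03) and the proteasome gene Psmd8 (0.03). Clu was closest to Tmem109 (0.04), the gamma-secretase gene Ncstn (0.04) and Ergic1 (0.04), which were all highest in library 2 and lowest in library 4.

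Other transitional markers were also highest in library 1 more often than not. Of 12 other non-keratin markers, all averaging at least 1 nRPKM, 8 were highest in library 1: Cldn4, Gdf15, Areg, Itgb6, Fosl1, Plaur, Tm4sf1 and Edn1. This compares with 23.3% of all genes tested. It was 9 of 12 with CPM on total counts, against 41.6% of all genes, and 9 of 12 with CPM without the mitochondrial ribosomal RNAs, against 32.1%. Among the highest of them were the EGF receptor ligand gene Areg (167 ± 41.7 nRPKM) and the hyaluronan receptor gene Cd44 (44.5 ± 2.07; SD, n = 4). Cd44 was even, with 41.5 to 45.9 nRPKM in the 4 libraries. Of the 4 keratins, Krt18 (293, 147, 207 and 137 nRPKM in libraries 1 to 4) and Krt19 (344, 182, 244 and 188) were highest in library 1. Krt8 (41.2, 20.2, 43.0 and 23.3) and Krt7 (175, 128, 209 and 149) were highest in library 3, although 1 of the 4 scalings tried (CPM without the mitochondrial ribosomal RNAs) put 3 of the 4 keratins highest in library 1. For all 4 keratins libraries 1 and 3 lay above libraries 2 and 4, as for Ndrg1, Nupr1 and Sprr1a. None of these 16 genes passed the test of spread after adjustment.

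Genes of the primed type II state, an inflammatory state described before the transitional one, shared no order of libraries. Of 6 listed genes, 1 (Ifitm3) was highest in library 1, near the 23.3% of all genes tested. In library 1, 3 of the 6 were lowest, against 26.8% of all genes, but only 1 with CPM on total counts. The iron-binding lipocalin gene Lcn2 had 173, 401, 475 and 207 nRPKM in libraries 1 to 4, the alarmin gene Il33 had 98.6, 119, 126 and 123, and Ifitm3 had 31.5, 30.9, 11.4 and 13.1. In nRPKM, library 1 was thus lowest for Lcn2 and Il33 and highest for Ifitm3. None of the 5 genes tested passed the test of spread after adjustment.

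**Figure D4:**
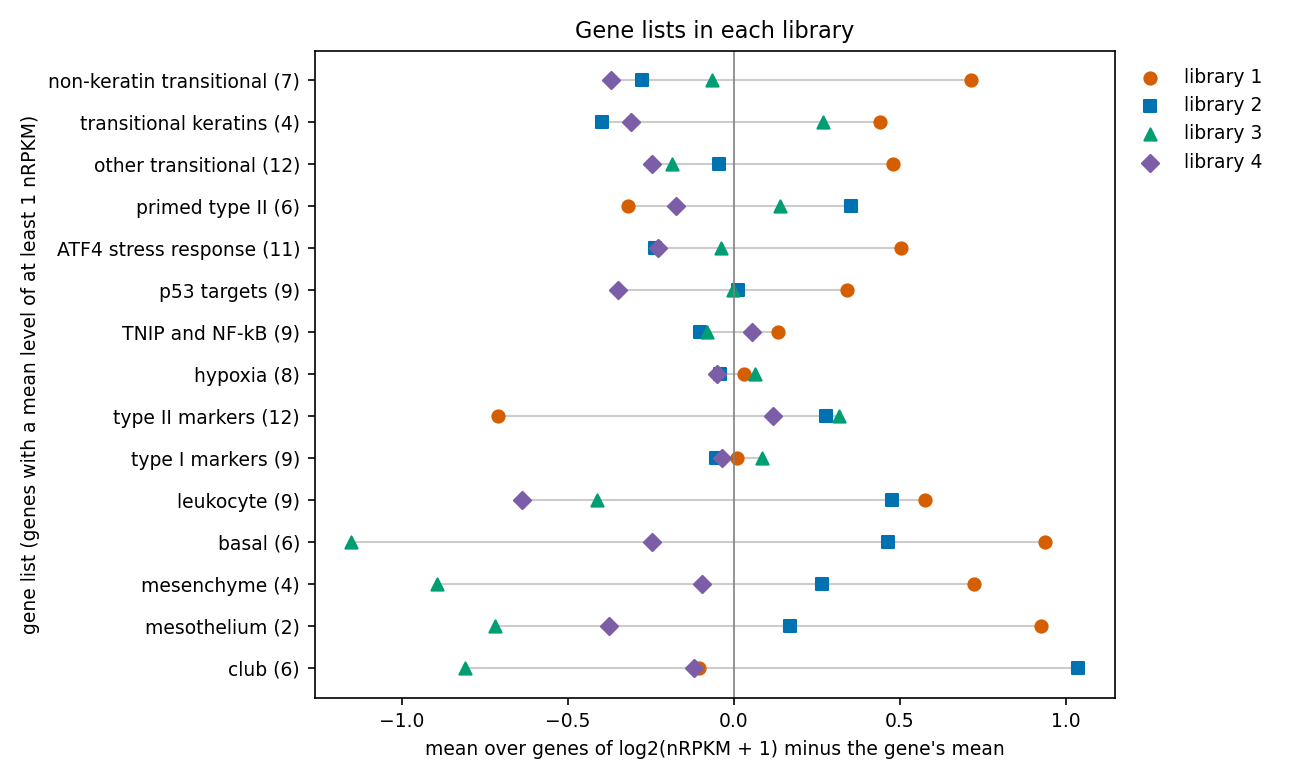
Mean deviation of gene lists from each gene's own mean, on the log2(nRPKM + 1) scale, in each library; brackets give the number of genes averaging at least 1 nRPKM, and the ATF4 and TNIP lists include Nupr1 and Tnip3. Library 1 lies furthest right for the transitional, ATF4, p53, TNIP, leukocyte, basal, mesenchyme and mesothelium lists. It lies furthest left for type II markers and for the primed type II list.

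Some marker lists of other cell types had their highest sum in library 1 beside the transitional genes, and others did not. The leukocyte and basal lists were described above. Of 9 mesenchymal markers, 4 averaged at least 1 nRPKM, led by Dcn, Col1a1 and Col1a2, and the summed level of the list was 29.2, 18.0, 5.56 and 12.9 nRPKM in libraries 1 to 4. Of 6 mesothelial markers, 2 did (Upk1b and Msln), with sums of 39.9, 23.1, 11.7 and 15.2, while Upk3b had no read and Gpm6a at most 13. A mean level of at least 1 nRPKM was reached by 42.4% of all identifiers. Of the genes that reached it, 3 of 4 mesenchymal and 2 of 2 mesothelial genes were highest in library 1, against 23.3% of all genes tested. With CPM on total counts it was 4 of 4 and 2 of 2, against 41.6%. Club cell markers, led by Scgb1a1, Bpifa1 and Cyp2f2, were highest in library 2 at a sum of 1064 nRPKM, against 322 in library 1. Ciliated markers summed to 44.5 to 65.6 nRPKM, mostly from Tubb4b and Tppp3, with Ccdc39 next and Foxj1 at no more than 9 reads. Endothelial markers, among them Pecam1, Kdr and Cdh5, summed to at most 0.870. Type I markers, led by Aqp5, Ager and Emp2, had sums of 575 to 738, with library 3 highest. Type II markers, led by Sftpc, Sftpb and Cxcl15, had their lowest sum in library 1, 10285 against 17132 to 22346. The part of these cell types in the levels of the transitional genes was not tested.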

How the data were processed

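Polyadenylated RNA of 4 libraries of a single label was analysed. Per the file headers, the authors deposited for each library a count, the number of reads aligning uniquely to a gene model, and a size-factor-adjusted RPKM (nRPKM). Per the submitters' processing notes, GSNAP and mm9 were used. Versions, annotation, strandedness and read filters were not given in the sources used here. Entrez identifiers were matched to symbols through a RefSeq table of GRCm38.p6, used for names only (25035 of 28096 matched; the rest took 2.48% to 3.71% of counts). Promoter windows are those of RefSeq on GRCm38.p6, for 5 of the 7 markers, and shared 50-base words were counted in the GENCODE transcripts of GRCm38.

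The deposited nRPKM gives all levels. The log2 scale adds a pseudocount of 1, so differences of low genes are understated. A count of 0 allows up to 3 counts. Counts, with total counts of 12133251, 12987938, 12928901 and 13591876, were fitted with edgeR 4.0.16 in R 4.3.3 (TMM, filterByExpr, intercept only). The quasi-dispersion of each gene was tested against the trended prior with Benjamini-Hochberg adjustment over all genes at 0.05, after a test on simulated data. Neighbouring levels were compared with exact sign-flip permutation tests. Alternatives were DESeq2 1.42.0 and its size factors, no filter, other library sizes, CPM, a pseudocount of 0.1 and leaving out each library.

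The markers and the 21 gene lists were chosen with earlier results of these data known. Of 194 listed genes 193 were found. Named are the 7 markers, family relatives with a mean level of at least 1, the 3 highest genes of each other list, and the 3 genes with the smallest root mean square difference of centred log2 levels to each marker. Of these, 1 gene is not reported here. Other genes named were chosen after their values were seen.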

Additional observations from a re-analysis of the deposited data

Results flagged for a closer look

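In 13 of 112 genes and list sums examined, a single library lay far from the other 3 by Dixon's criterion, which chance meets in about 1 in 20 groups. Among the transitional markers these were Nupr1 (86.8 nRPKM in library 1) and Sprr1a (271 nRPKM in library 1). The summed level of the small proline-rich and envelope genes (314 nRPKM in library 1) and of the ATF4 list (241 nRPKM in library 1) contain these 2 genes. Among genes picked for their likeness to a marker, which therefore share its pattern, Ces1g (28.8), Ptgs2 (99.8), Dusp1 (30.8), Zfand2a (21.1), Cmpk1 (57.8) and Churc1 (18.0 nRPKM) were far higher in library 1. Of the family relatives, Ndrg2 was far lower in library 2 (14.96 nRPKM), Ywhah was far lower in library 2 (20.1 nRPKM) and Ndrg3 was far higher in library 3 (12.5 nRPKM).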

How the results depend on the processing

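The number of genes called for spread was 2 with the settings used here, 66 without the low-count filter and 62 as DESeq2 dispersion outliers, and it was 0 to 6 when a library was left out. It was 0 without library 2 (640 genes at an unadjusted p under 0.05) and without library 3 (619 such genes), both by edgeR. Of 49 adjusted p-values of the 7 markers under alternatives, 1 was under 0.05, that of Nupr1 without the filter. The order of neighbouring levels kept its direction in 37 of 42 alternatives. In CPM, which has no gene length, Sprr1a minus Lgals3 became -0.21, Nupr1 minus Tnip3 -0.70 and Sfn minus Ndrg1 -0.66, since their lengths differ. Tnip3 minus Sfn was -0.26 without library 4, and Sfn minus Ndrg1 was -0.052 without library 2. Leaving out a library moved the difference of Tnip3 and Sfn over a range of -0.26 to 0.32 and that of Sfn and Ndrg1 over -0.052 to 0.23. The median ratio of the highest to the lowest library, 2.94 with the settings used here, ran from 1.72 (without library 1) to 2.94 when a library was left out, and was 2.96 to 3.66 under the 4 other scalings. Without library 1 the mean level of Nupr1 was 25.3 nRPKM in place of 40.7 and that of Lgals3 90.7 in place of 134. No paired analysis was possible because the libraries form a single group and carry no replicate numbers. Each level rests on 168 to 15333 reads, and the number of libraries limits the precision. The cause of the changed counts and directions, other than gene length, was not tested.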
